A study of Homo sapiens with 28 samples.

Results

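The hypoxia-inducible factor (HIF) subunits and the enzymes that sense oxygen for them were described in 2 prostate cancer cell lines. The 10 genes were taken by symbol: the alpha subunits HIF1A, EPAS1 and HIF3A, the partner subunits ARNT and ARNT2, the prolyl hydroxylases EGLN1, EGLN2 and EGLN3, the ubiquitin ligase subunit VHL and the asparaginyl hydroxylase HIF1AN. All 10 were among the 19662 gene symbols of both tables, and 9 passed the limit for testing in each line (at least 1 RPKM in at least 2 libraries). RPKM are reads per kilobase of gene, scaled to the mapped reads of the library, so levels of different genes can be ordered.

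HIF is a pair of an alpha subunit and ARNT or ARNT2. With oxygen, EGLN enzymes hydroxylate prolines of the alpha subunit, VHL then binds it for ubiquitination and destruction, and HIF1AN hydroxylates an asparagine that blocks coactivator binding. Without oxygen the alpha subunit persists as protein and switches on genes such as CA9 and VEGFA, and EGLN3 and EGLN1 are themselves known HIF targets. RNA levels, which were measured here, do not show protein stability.

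RNA-Seq covered 16 libraries, 2 in each of 4 groups per line. PC3 cells, a prostate cancer line from a bone metastasis, received control siRNA (siCtrl) or siRNA against the transcription factor ONECUT2 (siOC2), with siRNA1 in replicate 1 and siRNA2 in replicate 2. LNCaP cells, a prostate cancer line from a lymph node metastasis, carried an empty vector or a vector for Flag-tagged ONECUT2 (Flag-OC2), which the study's methods describe with a CMV promoter. Each of these was kept in normoxia or in a chamber at 0.2% O2 (hypoxia), and the comparisons ask how low oxygen and the level of ONECUT2 bear on these genes. Nothing in the labels says that replicates came from separate cultures, so P values measure only the spread between these libraries.

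Of the marker genes looked at, VIM did not separate all libraries of the lines. It was 30.2 to 353 RPKM in PC3 libraries and 23.6 to 58.2 RPKM in LNCaP libraries. The PC3 libraries in the LNCaP range were those of siRNA1, with 39.5 RPKM in normoxia and 30.2 RPKM in hypoxia. The siCtrl libraries (120 to 353 RPKM) and the siRNA2 libraries (81.9 and 165 RPKM) lay above every LNCaP library. KLK2, KLK3, TMPRSS2 and FOLH1 were higher in every LNCaP than in every PC3 library, and CAV1, CD44 and AXL were lower. KLK3, the prostate-specific antigen gene, was listed at 0 in all 8 PC3 libraries and was 1842 to 3997 RPKM in the LNCaP libraries. CAV1, a marker of PC3 cells, was 15.9 to 107 RPKM in PC3 and 0.0089 to 0.120 RPKM in LNCaP libraries. Relative depth, read from the steps between low RPKM with 1 for the siCtrl library 2 in normoxia, ran from 0.348 to 1.15 in PC3 libraries. The 3 shallow ones were siCtrl normoxia 1, siCtrl hypoxia 2 and siOC2 hypoxia 1. In LNCaP libraries it ran from 0.548 to 1, with 1 for the empty vector library 2 in normoxia.

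ONECUT2 itself was 1.77 and 1.16 RPKM in siCtrl and 0.276 and 0.204 RPKM in siOC2 libraries in normoxia. For siCtrl over siOC2 the log2 fold change came to 2.18 ± 0.65 (SE, adjusted p = 0.332 by limma). In hypoxia it was 0.648 and 0.550 RPKM in siCtrl and 0.125 and 0.214 RPKM in siOC2 libraries, a log2 fold change of 1.39 ± 0.65 (adjusted p = 0.439 by limma). The siOC2 libraries were lower than the siCtrl libraries at both oxygen levels, and the limits of a call were passed in normoxia. ONECUT2 reached 1 RPKM in the siCtrl normoxia libraries alone, so it entered the fit through the group in which it was highest, and its values are given as a description of the knockdown. The LNCaP empty vector libraries held 2.89 and 7.86 RPKM in normoxia and 11.5 and 3.09 RPKM in hypoxia, and ONECUT2 had no value in the Flag-OC2 libraries, so the overexpression could not be checked here.

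The promoters of EGLN1, EGLN3 and EPAS1, which rose in hypoxia in both lines in at least 1 comparison, are shown beside that of EGLN2, the EGLN gene that passed the 2-fold limit in no comparison. The sequences are the 300 bases around the annotated start, from RefSeq, printed 5′ to 3′ along the gene. Capitals mark the core letters of the HIF response element, searched as ACGTG and GCGTG on both strands. RefSeq entries of the build GRCh38.p14 were found for 8 of the 10 genes (12 entries), and each entry matched the GRCh37 genome exactly once, which gave the coordinates below.
EGLN1, chr1:231557984-231558283, minus strand: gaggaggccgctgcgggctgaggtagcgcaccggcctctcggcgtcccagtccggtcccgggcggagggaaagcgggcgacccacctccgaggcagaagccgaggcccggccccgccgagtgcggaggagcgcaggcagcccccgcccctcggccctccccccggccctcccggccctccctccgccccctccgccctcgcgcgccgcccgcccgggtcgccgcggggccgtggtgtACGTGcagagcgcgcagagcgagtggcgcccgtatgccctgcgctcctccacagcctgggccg
EGLN3, chr14:34420231-34420530, minus strand: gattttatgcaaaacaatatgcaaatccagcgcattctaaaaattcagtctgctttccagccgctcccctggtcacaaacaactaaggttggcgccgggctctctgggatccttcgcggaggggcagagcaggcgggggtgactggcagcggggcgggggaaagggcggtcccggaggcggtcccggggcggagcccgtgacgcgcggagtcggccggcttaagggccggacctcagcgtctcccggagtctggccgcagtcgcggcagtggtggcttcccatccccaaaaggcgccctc
EPAS1, chr2:46524296-46524595, plus strand: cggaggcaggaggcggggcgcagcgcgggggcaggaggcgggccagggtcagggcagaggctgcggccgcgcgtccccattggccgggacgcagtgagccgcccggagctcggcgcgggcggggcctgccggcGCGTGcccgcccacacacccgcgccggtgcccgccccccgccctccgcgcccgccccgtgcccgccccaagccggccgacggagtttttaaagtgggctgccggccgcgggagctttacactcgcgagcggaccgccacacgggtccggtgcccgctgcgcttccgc
EGLN2, chr19:41304846-41305145, plus strand: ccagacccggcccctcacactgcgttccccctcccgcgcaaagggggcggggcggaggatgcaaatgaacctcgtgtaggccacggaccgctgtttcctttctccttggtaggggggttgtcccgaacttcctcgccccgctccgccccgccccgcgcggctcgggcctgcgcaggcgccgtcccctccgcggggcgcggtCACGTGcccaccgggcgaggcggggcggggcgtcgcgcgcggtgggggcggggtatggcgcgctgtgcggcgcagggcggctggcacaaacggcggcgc

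The EGLN1 window held 1 ACGTG and the EPAS1 window 1 GCGTG, while the EGLN3 window held neither. The EGLN2 window held the palindrome CACGTG, an E-box in which ACGTG reads on both strands. Of 35116 promoter windows of this length, 21.4% held ACGTG, 36.5% held GCGTG and 48.4% held either, so a match in a single gene is common. EGLN2 has a second RefSeq start, whose window held neither motif.

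HIF1A was the most abundant of the 10 genes in every group. In PC3 cells in normoxia its mean was 422 ± 81.6 RPKM (SD, n = 2) with siCtrl, against 22.2 ± 1.51 for EPAS1, the gene of HIF-2 alpha, 14.4 ± 0.0805 for HIF1AN and 13.2 ± 2.05 for EGLN1. ARNT (6.95 ± 0.942), EGLN2 (6.20 ± 0.782), VHL (3.21 ± 0.344), ARNT2 (1.96 ± 0.0706) and EGLN3 (1.55 ± 0.351) followed. Of these neighbours, HIF1AN and EGLN1 overlapped, as did ARNT and EGLN2, and all other neighbours were separated in both libraries. LNCaP cells with the empty vector in normoxia had 209 ± 21.3 RPKM of HIF1A, followed by VHL (27.2 ± 0.427), ARNT (24.4 ± 0.33), HIF1AN (17.4 ± 1.79), EGLN1 (15.9 ± 2.12), EGLN2 (13.4 ± 0.921), EGLN3 (6.16 ± 1.46), ARNT2 (2.13 ± 0.889) and EPAS1 (1.79 ± 0.501). Here HIF1AN overlapped EGLN1 and ARNT2 overlapped EPAS1.

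By its mean, EPAS1 was second in every PC3 group and eighth or ninth in the LNCaP groups. In both PC3 hypoxia groups its libraries overlapped those of EGLN1. VHL was 2.96 to 5.70 RPKM over the 8 PC3 libraries and 25.4 to 32.6 RPKM over the 8 LNCaP libraries, and ARNT was 3.58 to 9.05 against 22.8 to 30.5 RPKM. EGLN3 was 1.31 and 1.80 RPKM in siCtrl normoxia against 7.20 and 5.13 RPKM in empty vector normoxia, and 3.69 and 3.42 against 36.1 and 33.1 RPKM in hypoxia. The tables of the lines were made separately, so these levels were set side by side with no test. The upper quartile of RPKM over all listed genes was 9.50 to 12.9 in PC3 and 19.3 to 22.4 in LNCaP libraries. The levels given here were not adjusted for this difference in scale. HIF3A, the third alpha subunit, was listed at 0 in 6 of 8 PC3 and 7 of 8 LNCaP libraries, with highest values of 0.0139 and 0.00374 RPKM, and was not tested.

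**Figure D1:**
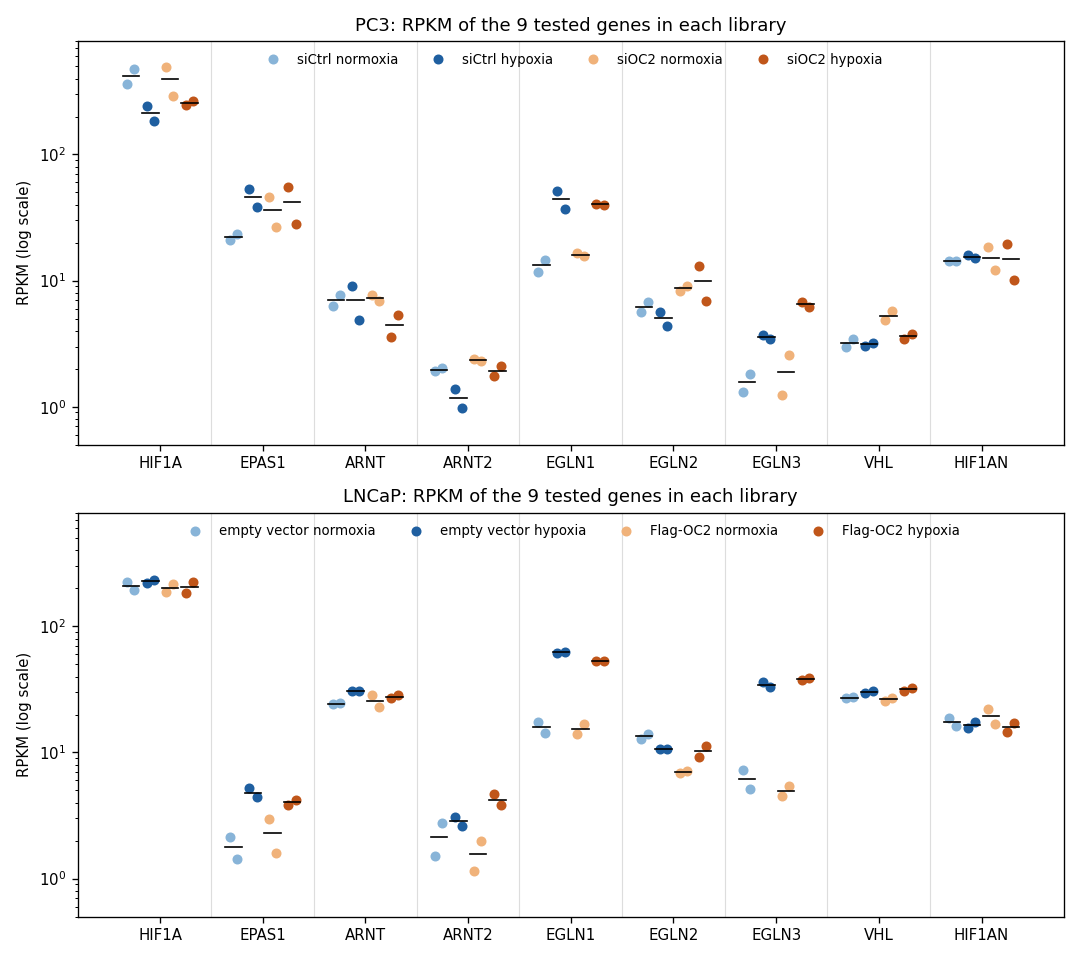
RPKM on a log scale of the 9 tested genes, PC3 above and LNCaP below, with 1 point per library (replicate 1 left, replicate 2 right), 4 groups by colour and a bar at the mean of 2 libraries. HIF1A lies highest in every group, the hypoxia points of EGLN1 and EGLN3 lie above their normoxia points in both lines, and VHL and ARNT lie lower in PC3 than in LNCaP.

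In PC3 cells with siCtrl, hypoxia raised EGLN1, EGLN3 and EPAS1 more than 2-fold. These were 3 of the 9 tested members called higher, against 2.23% of all 12214 genes called higher (3.86% called in either direction). Calls follow the limits of the study for this line, more than 2-fold with P under 0.05 before adjustment, here from limma on log2(RPKM + 0.1). None of the 3 reached an adjusted p under 0.05, which 0.270% of all genes did. Hypoxia and normoxia libraries did not overlap, in either direction, for 55.0% of all genes with siCtrl and 28.3% with siOC2. In bulk RNA, a change in the number of cells that express a gene and in RNA per cell cannot be told apart.

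EGLN1 encodes PHD2, the main prolyl hydroxylase of normoxic cells. It was 11.8 and 14.7 RPKM in normoxia and 50.9 and 37.2 RPKM in hypoxia with siCtrl. Both hypoxia libraries were above both normoxia libraries, and the log2 fold change was 1.72 ± 0.27 (SE, adjusted p = 0.0572 by limma). With siOC2 it was 16.4 and 15.6 RPKM in normoxia and 40.8 and 40.1 RPKM in hypoxia, again without overlap, with a log2 fold change of 1.33 ± 0.27 (adjusted p = 0.405 by limma). EGLN1 kept its call without any single library.

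EGLN3 encodes PHD3, the hydroxylase best known for its induction by HIF. With siCtrl it was 1.31 and 1.80 RPKM in normoxia and 3.69 and 3.42 RPKM in hypoxia. The groups did not overlap, and the log2 fold change was 1.16 ± 0.41 (adjusted p = 0.54 by limma). With siOC2 it was 1.23 and 2.55 RPKM in normoxia and 6.80 and 6.20 RPKM in hypoxia, a log2 fold change of 1.81 ± 0.41 (adjusted p = 0.523 by limma). EGLN3 and EGLN1 were the 2 members called with siOC2, where 1.11% of all genes were called higher, 2.35% lower and 3.46% in either direction. With siOC2 0 members were called lower by limma, also at an unadjusted P under 0.05 (4.89% of all genes), and 0 had an adjusted p under 0.05 (0.00819% of all genes). The siCtrl call of EGLN3 was lost without siCtrl normoxia 1 (log2 fold change 0.94), and without siCtrl hypoxia 1 (1.11) or siCtrl hypoxia 2 (1.21), where the unadjusted P was over its limit.

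EPAS1 was 21.2 and 23.3 RPKM in siCtrl normoxia and 52.8 and 38.4 RPKM in siCtrl hypoxia. The hypoxia libraries were both higher, with a log2 fold change of 1.02 ± 0.40 (adjusted p = 0.611 by limma), just past the 2-fold limit. With siOC2 it was 45.7 and 26.7 RPKM in normoxia and 55.7 and 28.2 RPKM in hypoxia, and those groups overlapped without a call. The siCtrl call was lost without siCtrl normoxia 1 (log2 fold change 0.95), siCtrl normoxia 2 (1.09, with the unadjusted P over its limit) or siCtrl hypoxia 1 (0.79).

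In the siOC2 libraries EPAS1 was split by siRNA at both oxygen levels. The siRNA1 libraries had the 45.7 and 55.7 RPKM, the siRNA2 libraries the 26.7 and 28.2 RPKM. HIF1AN, the inhibitor of HIF coactivator binding, had the same order, with 18.3 and 19.6 RPKM for siRNA1 and 12.1 and 10.1 RPKM for siRNA2, while siCtrl libraries were 14.3 to 15.9 RPKM. Over all tested genes, deviations from the group means in normoxia and hypoxia correlated between libraries of the same siRNA (r = 0.618 across 12214 genes, which are not independent replicates). Of the PC3 markers, CAV1 had 48.8 and 88.2 RPKM with siRNA1 and 15.9 and 20.1 RPKM with siRNA2. CD44, VIM and AXL had the other order at both oxygen levels. CD44 was 260 and 171 RPKM with siRNA1 and 328 and 488 RPKM with siRNA2. VIM was 39.5 and 30.2 against 81.9 and 165 RPKM, and AXL 21.3 and 21.1 against 34.7 and 34.9 RPKM. The part of the siRNA in these values was not tested, since each siRNA has 1 library per oxygen level.

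HIF1A encodes the alpha subunit that is regulated mainly through protein stability. It was 365 and 480 RPKM in siCtrl normoxia and 241 and 185 RPKM in siCtrl hypoxia. Both hypoxia libraries were lower, with a log2 fold change of -0.99 ± 0.30 (adjusted p = 0.428 by limma), just short of the 2-fold limit and so not called. No member was called lower in this comparison by limma, against 1.63% of all genes. HIF1A was the 1 member with a lower value in hypoxia and an unadjusted P under 0.05, which 3.35% of all genes had. The call was reached without siCtrl normoxia 1 (log2 fold change -1.19) or without siCtrl hypoxia 1 (-1.18). With siOC2 it was 495 and 292 RPKM in normoxia and 246 and 266 RPKM in hypoxia, which did not overlap and gave no call.

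The pool of the alpha subunits shifted with these values. EPAS1 made up 5.48% and 4.63% of the summed HIF1A and EPAS1 RPKM in siCtrl normoxia and 18.0% and 17.2% in siCtrl hypoxia. The ratio of HIF1A to EPAS1 was 18.9 ± 2.39 (SD, n = 2) in normoxia and 4.68 ± 0.178 in hypoxia with siCtrl, and 10.9 ± 0.0636 and 6.93 ± 3.54 with siOC2. With 2 libraries against 2, an exact two-sided permutation test cannot go below p = 0.33, so shares and ratios are given without a test.

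The remaining PC3 members gave no call in hypoxia. ARNT, the constitutive partner of the alpha subunits, was 6.29 and 7.62 RPKM in siCtrl normoxia and 9.05 and 4.90 RPKM in siCtrl hypoxia. Its siCtrl normoxia values lay between its siCtrl hypoxia values. With siOC2 ARNT was 7.68 and 6.85 RPKM in normoxia and 3.58 and 5.30 RPKM in hypoxia, lower without overlap. ARNT2, its mainly neuronal paralog, was 1.91 and 2.01 RPKM in normoxia and 1.38 and 0.970 RPKM in hypoxia. VHL was 2.96 and 3.45 RPKM in normoxia and 3.05 and 3.21 RPKM in hypoxia, with overlap.

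In LNCaP cells with the empty vector, hypoxia again raised EGLN1, EGLN3 and EPAS1. These were 3 of the 9 tested members, against 5.60% of all 12283 genes called higher (7.95% in either direction), and all 3 also had an adjusted p under 0.05, as 32.3% of all genes had. With Flag-OC2, EGLN1, EGLN3 and ARNT2 were called higher, against 5.48% of all genes (6.84% in either direction). These and EGLN2 had an adjusted p under 0.05, as 26.9% of all genes had. No member was called lower by limma, against 2.34% of all genes with the empty vector and 1.36% with Flag-OC2. At an unadjusted P under 0.05 there was 1 lower member with the empty vector (EGLN2, against 20.3% of all genes) and 0 with Flag-OC2 (13.8%). Hypoxia and normoxia libraries did not overlap for 69.4% of all genes with the empty vector and 68.1% with Flag-OC2.

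EGLN1 was 17.4 and 14.4 RPKM in empty vector normoxia and 61.8 and 62.7 RPKM in empty vector hypoxia. The libraries were far apart, with a log2 fold change of 1.97 ± 0.13 (adjusted p = 4.63e-05 by limma). With Flag-OC2 it was 13.9 and 16.7 RPKM in normoxia and 53.6 and 53.2 RPKM in hypoxia, a log2 fold change of 1.80 ± 0.13 (adjusted p = 9.11e-05 by limma).

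EGLN3 had the largest change of the members in LNCaP cells. It was 7.20 and 5.13 RPKM in empty vector normoxia and 36.1 and 33.1 RPKM in empty vector hypoxia, a log2 fold change of 2.49 ± 0.17 (adjusted p = 5.23e-05 by limma). With Flag-OC2 it was 4.54 and 5.40 RPKM in normoxia and 37.7 and 38.8 RPKM in hypoxia, a log2 fold change of 2.92 ± 0.17 (adjusted p = 2.89e-05 by limma). No hypoxia library overlapped a normoxia library.

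EPAS1 was 2.14 and 1.43 RPKM in empty vector normoxia and 5.21 and 4.41 RPKM in empty vector hypoxia. The log2 fold change was 1.40 ± 0.30 (adjusted p = 0.0091 by limma), and the groups did not overlap. With Flag-OC2 it was 2.98 and 1.60 RPKM in normoxia and 3.84 and 4.19 RPKM in hypoxia, with a log2 fold change of 0.85 ± 0.30 (adjusted p = 0.0658 by limma), which was not called. Without Flag-OC2 normoxia 1, the higher of the normoxia libraries, the log2 fold change was 1.28 and the call was reached (adjusted p = 0.0262 by limma). HIF1A was 193 to 224 RPKM in normoxia and 221 to 235 RPKM in hypoxia with the empty vector, and was not called in any LNCaP comparison.

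ARNT2 was 1.14 and 1.98 RPKM in Flag-OC2 normoxia and 4.64 and 3.82 RPKM in Flag-OC2 hypoxia. The groups did not overlap, with a log2 fold change of 1.43 ± 0.33 (adjusted p = 0.0152 by limma). With the empty vector it was 1.5 and 2.76 RPKM in normoxia and 3.08 and 2.63 RPKM in hypoxia, which overlapped and gave no call. ARNT was 24.1 and 24.6 RPKM in empty vector normoxia and 30.5 in both hypoxia libraries, a log2 fold change of 0.32 ± 0.12 that stayed under 2-fold (adjusted p = 0.0694 by limma).

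VHL and HIF1AN stayed in a narrow range in LNCaP cells. VHL was 26.9 and 27.5 RPKM in empty vector normoxia and 29.7 and 30.7 RPKM in empty vector hypoxia. With Flag-OC2 it was 25.4 and 27.2 RPKM in normoxia and 30.7 and 32.6 RPKM in hypoxia, a log2 fold change of 0.27 ± 0.10 (adjusted p = 0.0717 by limma), under 2-fold. HIF1AN was 14.5 to 22.3 RPKM over the 8 LNCaP libraries, with overlapping groups in both hypoxia comparisons.

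**Figure D2:**
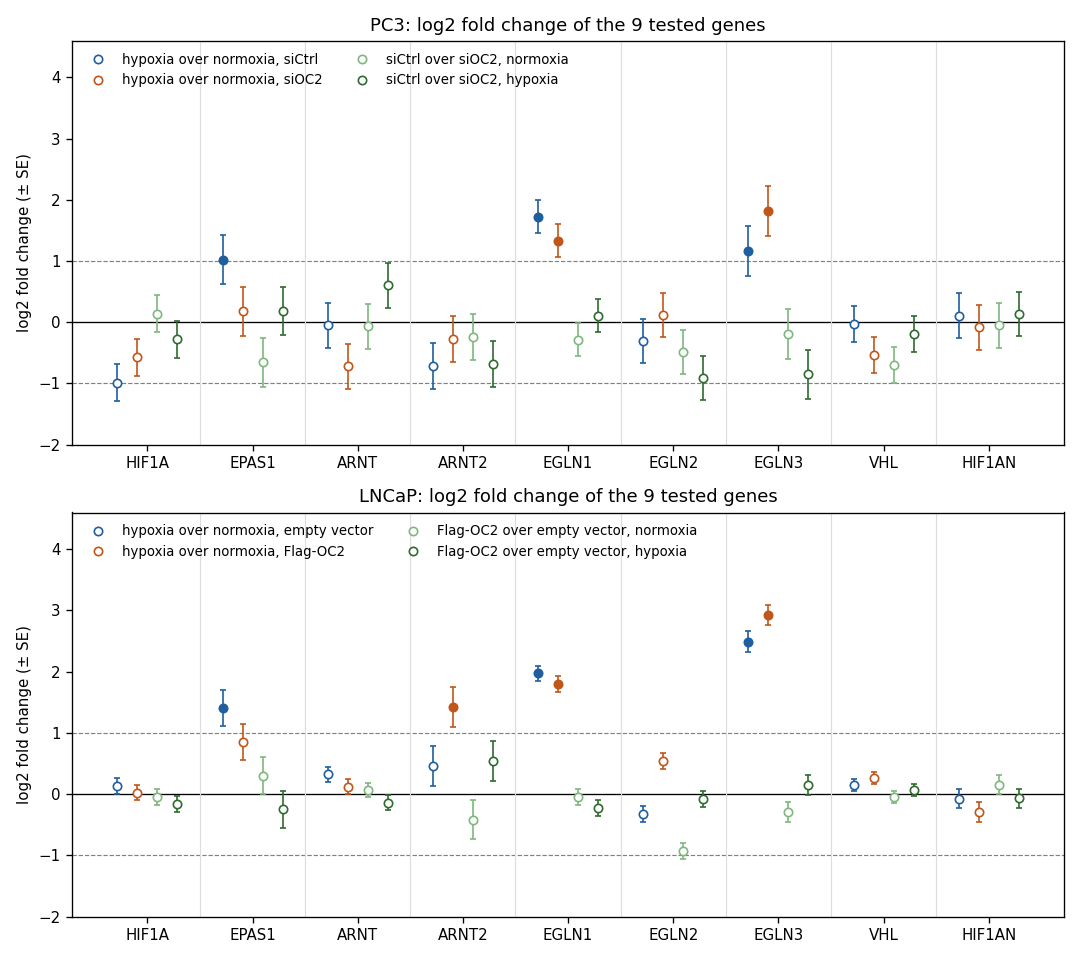
Log2 fold change with its SE for the 9 tested genes in 4 comparisons per line, PC3 above and LNCaP below, with filled points for called values and dashed lines at a 2-fold change. Filled points are EGLN1 and EGLN3 in all 4 hypoxia comparisons, EPAS1 in the siCtrl and empty vector comparisons and ARNT2 with Flag-OC2, and no point of an ONECUT2 comparison is filled.

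EGLN2 held a smaller share of the summed EGLN RPKM in hypoxia than in normoxia. In PC3 cells with siCtrl the summed EGLN RPKM was 21.0 ± 3.18 (SD, n = 2) in normoxia and 52.6 ± 10.8 in hypoxia, and the share of EGLN2 was 29.6% ± 0.773 and 9.57% ± 0.212. The share of EGLN1 was 63.0% ± 0.219 and 83.6% ± 1.26, and that of EGLN3 7.37% ± 0.554 and 6.86% ± 1.05. In LNCaP cells with the empty vector the sum was 35.4 ± 2.66 in normoxia and 107.6 ± 1.43 in hypoxia.

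In LNCaP cells EGLN3 held a larger share in hypoxia than in normoxia. With the empty vector its share was 17.3% ± 2.83 in normoxia and 32.2% ± 1.55 in hypoxia, while that of EGLN2 was 38.0% ± 5.45 and 9.96% ± 0.168. With Flag-OC2 the share of EGLN3 was 18.2% ± 0.393 and 37.6% ± 0.0366. In PC3 cells with siOC2 it was 7.05% ± 3.27 and 11.4% ± 0.316, above the siCtrl hypoxia libraries.

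**Figure D3:**
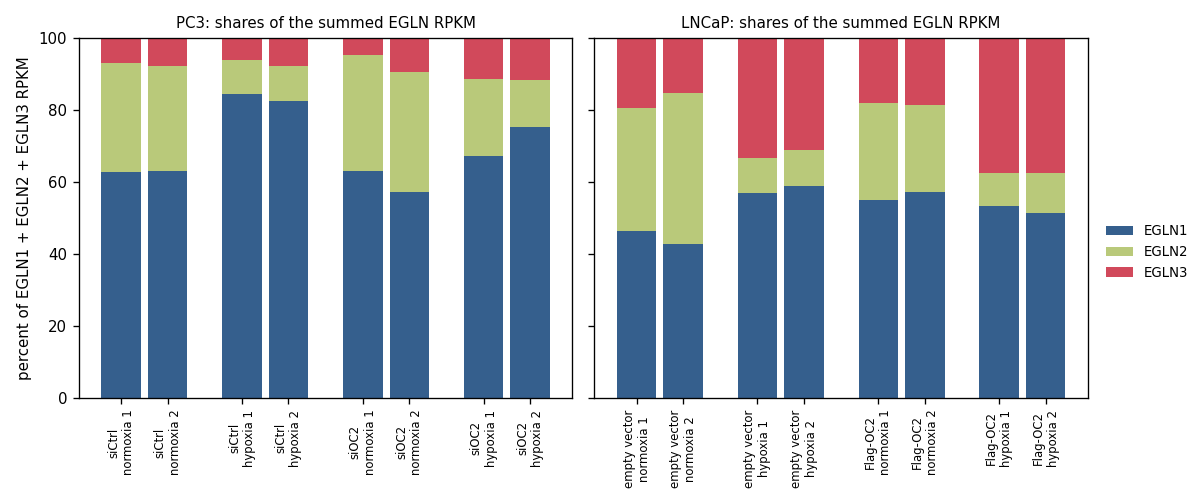
Stacked bars of the percent of the summed EGLN RPKM held by EGLN1, EGLN2 and EGLN3, 1 bar per library, PC3 left and LNCaP right. EGLN2 takes 24.2% to 41.9% in normoxia libraries and 9.15% to 21.4% in hypoxia libraries, and EGLN3 takes over 30% only in LNCaP hypoxia libraries.

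The ONECUT2 comparisons ask whether these genes differ between high and low ONECUT2 at the same oxygen level. In PC3 cells none of the 9 tested members was called by limma for siCtrl over siOC2, against 5.21% of all genes in normoxia and 7.50% in hypoxia. At an unadjusted P under 0.05 there was 1 member in each, VHL in normoxia (9.20% of all genes) and EGLN2 in hypoxia (12.1%). An adjusted p under 0.05 was reached by 0 members in each, and by 0.00819% and 0.0901% of all genes. In LNCaP cells none was called for Flag-OC2 over empty vector, against 3.29% of all genes in normoxia and 4.47% in hypoxia. At an unadjusted P under 0.05 there was 1 member in normoxia (EGLN2, against 24.1% of all genes) and 0 in hypoxia (28.2%). By the adjusted p there was again EGLN2 in normoxia and 0 in hypoxia, where 11.5% of all genes passed. The compared libraries did not overlap for 46.4% of all genes in PC3 normoxia and 38.4% in PC3 hypoxia. In LNCaP cells these shares were 49.4% and 66.4%.

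EGLN2 encodes PHD1, which is not known as a HIF target. In LNCaP normoxia it was 12.7 and 14.05 RPKM with the empty vector and 6.85 and 7.08 RPKM with Flag-OC2. The groups were far apart, with a log2 fold change of -0.93 ± 0.13, just under the 2-fold limit. It was therefore not called. Its adjusted p was 0.00748 by limma, and 5.26% of all genes had an adjusted p under 0.05. The 2-fold limit was passed without empty vector normoxia 1 (log2 fold change -1.003). In hypoxia it was 10.7 and 10.7 RPKM with the empty vector and 9.19 and 11.2 RPKM with Flag-OC2, and these overlapped.

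The effect of hypoxia on EGLN2 had opposite signs in the 2 LNCaP arms. It was -0.32 ± 0.13 on the log2 scale with the empty vector (adjusted p = 0.0944 by limma) and 0.54 ± 0.13 with Flag-OC2 (adjusted p = 0.0187 by limma). The interaction, which tests that difference, was 0.86 ± 0.18 (adjusted p = 0.098 by limma), under 2-fold and not called. No member was called for the interaction, against 3.70% of all genes in LNCaP and 0.942% in PC3 cells. At an unadjusted P under 0.05 the count was 1 member in LNCaP cells (EGLN2, against 16.9% of all genes) and 0 in PC3 cells (1.03%). By the adjusted p it was 0 in both, against 0.244% and 0.00% of all genes. In LNCaP hypoxia libraries MT-ATP8 took 9.05% to 12.6% of the summed RPKM, where the top gene of the normoxia libraries took 3% to 4.07%, and its part in the hypoxia results was not tested.

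In PC3 cells EGLN2 was 5.65 and 6.76 RPKM with siCtrl and 8.33 and 9.11 RPKM with siOC2 in normoxia. In hypoxia it was 5.68 and 4.38 RPKM with siCtrl and 12.98 and 6.92 RPKM with siOC2, a log2 fold change of -0.91 ± 0.36 (adjusted p = 0.348 by limma). The siCtrl libraries were the lower ones at both oxygen levels. Without siOC2 hypoxia 2 the hypoxia value was -1.36 and past the limits (adjusted p = 0.034 by limma). The library left with siOC2 was then siOC2 hypoxia 1, the shallowest of the line. RAB4B-EGLN2, a readthrough gene on the same strand that overlaps EGLN2, had 0.563 RPKM in siCtrl hypoxia 1 and under 1e-07 RPKM in the other 15 libraries.

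VHL in PC3 normoxia was 2.96 and 3.45 RPKM with siCtrl and 4.86 and 5.70 RPKM with siOC2. The siOC2 libraries were both higher, with a log2 fold change of -0.70 ± 0.30 for siCtrl over siOC2 (adjusted p = 0.53 by limma), under 2-fold. In hypoxia VHL was 3.05 and 3.21 RPKM with siCtrl and 3.45 and 3.76 RPKM with siOC2. In LNCaP cells VHL of the empty vector and Flag-OC2 libraries overlapped in normoxia.

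The annotation of GRCh37 (GENCODE v44 lifted over) placed EGLN2 on chromosome 19 at 41304901 to 41314339, EGLN1 on chromosome 1 at 231499497 to 231558033 and EPAS1 on chromosome 2 at 46520806 to 46613836, all protein-coding. HIF1AN, on chromosome 10 at 102288829 to 102319755, overlaps NDUFB8 on the opposite strand, and EGLN3, on chromosome 14 at 34393433 to 34931980, overlaps SPTSSA on the same strand in this annotation. SPTSSA was 3.33 to 6.99 RPKM in PC3 and 21.3 to 29.1 RPKM in LNCaP libraries and was not called in any comparison. Whether the counting used the strand of the reads is not given in the sources used here.

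Of 19 genes for the VHL ligase complex, HIF stability and coactivators, all tested in both lines, CITED2 was called higher in the 4 hypoxia comparisons and SIAH1 in 1. Of all genes, 2.23% were called higher with siCtrl, 1.11% with siOC2, 5.60% with the empty vector and 5.48% with Flag-OC2. CITED2, an inhibitor that competes with HIF for the coactivators CREBBP and EP300, was 9.36 and 9.04 RPKM in siCtrl normoxia and 23.7 and 20.7 RPKM in siCtrl hypoxia of PC3 cells, a log2 fold change of 1.26 ± 0.26. In LNCaP cells with the empty vector it was 90.6 and 106 RPKM in normoxia and 326 and 309 RPKM in hypoxia, a log2 fold change of 1.70 ± 0.10 (adjusted p = 4.55e-05 by limma). The median log2 fold change of the 19 genes with siCtrl was -0.08, beside -0.07 over all genes tested, and with the empty vector -0.05 beside 0.02.

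SIAH1, a ubiquitin ligase that targets EGLN3, was 5.86 and 6.99 RPKM in Flag-OC2 normoxia and 15.5 and 11.2 RPKM in Flag-OC2 hypoxia. Its log2 fold change was 1.03 ± 0.18 (adjusted p = 0.00518 by limma). With the empty vector 5 of the 19 genes had an adjusted p under 0.05 in hypoxia, against 32.3% of all genes, with CITED2 and CREBBP higher and HSP90AA1, PTGES3 and TCEB1 lower. With Flag-OC2 there were also 5, against 26.9% of all genes, with CITED2, EP300, RBX1 and SIAH1 higher and HSP90AA1 lower. HSP90AA1, a chaperone of HIF1A, was 801 and 710 RPKM in empty vector normoxia and 440 and 419 RPKM in empty vector hypoxia, a change under 2-fold (log2 fold change -0.81 ± 0.10, adjusted p = 0.000751 by limma). No pathway gene was called in an ONECUT2 comparison by limma, where at an unadjusted P under 0.05 the counts were 1 in PC3 normoxia (9.20% of all genes), 2 in PC3 hypoxia (12.1%), 4 in LNCaP normoxia (24.1%) and 4 in LNCaP hypoxia (28.2%). These shares of the 19 genes were no higher than those of all genes.

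In Flag-OC2 hypoxia CITED2 was 200 and 214 RPKM, below the 326 and 309 RPKM of empty vector hypoxia. The difference was under 2-fold (log2 fold change -0.62 ± 0.10, adjusted p = 0.0102 by limma). CITED2 and HSP90AA1, which was higher with Flag-OC2 (log2 fold change 0.36 ± 0.10, adjusted p = 0.0459 by limma), were the 2 of 19 pathway genes with an adjusted p under 0.05 in that comparison, against 11.5% of all genes. In PC3 cells HSP90AA1 went the other way and was among the genes with an unadjusted P under 0.05 at both oxygen levels. It was 304 and 318 RPKM with siCtrl and 535 and 675 RPKM with siOC2 in normoxia. In hypoxia it was 334 and 235 RPKM with siCtrl and 428 and 631 RPKM with siOC2. Of 6 other PAS genes that pair with ARNT or repress such pairs, 3 were tested in PC3 and 2 in LNCaP cells. SIM2 was called higher in hypoxia with Flag-OC2 (log2 fold change 1.06 ± 0.12, adjusted p = 0.000992 by limma), the only call of these genes in the 10 comparisons. In that comparison 5.48% of all genes were called higher.

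Known hypoxia genes moved in the same libraries. Of 10 such genes, 9 of 10 tested were called higher in each PC3 hypoxia comparison and 9 of 9 tested in each LNCaP one. Of all genes 1.11% to 5.60% were called higher in these comparisons. VEGFA was the one without a call in PC3 cells, and ADM was not tested in LNCaP cells. CA9 reached 1 RPKM in the hypoxia libraries and, in normoxia, in siOC2 normoxia 1 alone. It entered both fits through the hypoxia groups, so its calls in these counts are a description only. CA9, a carbonic anhydrase, averaged 0.662 RPKM in siCtrl normoxia and 47.5 RPKM in siCtrl hypoxia of PC3 cells, and 0.502 and 4.47 RPKM in LNCaP cells with the empty vector. PDK1, a kinase that limits pyruvate oxidation, averaged 11.4 and 38.4 RPKM in PC3 and 11.8 and 59.5 RPKM in LNCaP cells of the same groups.

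The genes whose pattern was most like that of a called member were taken by Pearson's r of log2(RPKM + 0.1) over the 8 libraries of a line, given without a p since these libraries share their oxygen groups. In LNCaP cells EGLN3 was followed by RLF (0.999), PDK1 (0.999) and VGLL4 (0.998), and EGLN1 by MYBPC1 (0.998), ANKZF1 (0.997) and TENM1 (0.997). EGLN1 and EGLN3 correlated with r = 0.990 in LNCaP and 0.856 in PC3 cells. In PC3 cells EGLN1 was followed by MTRNR2L10 (0.993), MTRNR2L11 (0.991) and PLOD2 (0.991), and EGLN3 by PDLIM1 (0.966), MED13L (0.965) and WDR60 (0.964).

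EPAS1 was followed in PC3 cells by SUCO (0.973), SEPT10 (0.965) and ARHGAP17 (0.952), and in LNCaP cells DYNC1LI2 (0.976) and TCIRG1 (0.976) were among the 3 genes most like it. ARNT2 in LNCaP cells was followed by EFS (0.987), CARKD (0.976) and CELSR2 (0.975). In LNCaP cells 28 to 228 genes had a rank correlation with the member at least as high as that of the gene named, and in PC3 cells 5 to 194.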

How the data were processed

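RNA-Seq of PC3 and LNCaP cells gave 16 libraries, grouped by their labels. The ChIP-Seq samples of the series (12) were not analysed here. The authors made stranded mRNA libraries, aligned reads to hg19 (GRCh37) with STAR 2.4.2a and deposited RPKM per gene from Cufflinks 2.1.1. No further scaling was applied. RPKM carry no read counts, and precision rests on how far 2 libraries lie apart and on relative depth, estimated from the steps between low RPKM.

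Genes reaching 1 RPKM in 2 or more libraries entered, per line, a limma fit (limma 3.58.1, R 4.3.3) of log2(RPKM + 0.1) on 4 groups, using a mean-variance trend. Genes lacking a value in any library were left out. Fold changes are on this scale and understate those of low genes. Tests are 2-sided, and p-values were adjusted by Benjamini-Hochberg across the genes of the fit. Calls needed more than 2-fold and P under 0.05. The fit was tested on simulated data. The members, gene lists and limits were chosen with earlier results of these data known. Named are the 10 members, pathway genes that were called, and the 3 genes most like each called member, of which 1 is not reported here. HSP90AA1, CREBBP, EP300, PTGES3, TCEB1, RBX1, VIM, RAB4B-EGLN2, SPTSSA, NDUFB8 and MT-ATP8 were added after their values were seen.

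Pairing by replicate number was examined through same-number correlations of residuals, which ran from -0.186 to 0.618 in PC3 and from -0.0648 to 0.275 in LNCaP cells. The 0.618 was between the siOC2 groups, whose libraries of the same number share an siRNA. The main fit did not take the numbers as pairs, and so treated the siRNAs as replicates. Alternatives were another pseudocount, other limits on low values, upper-quartile scaling, adjusted p, fits restricted to compared groups, the replicate block, 0 as missing, no trend and leaving out each library. The crossed block and relative depth as a covariate were chosen after seeing the data.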

Additional observations from a re-analysis of the deposited data

Results flagged for a closer look

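EGLN2 had hypoxia effects of opposite sign in the LNCaP arms, and the difference itself was tested (interaction of 0.8589 on the log2 scale, past 0.05 before adjustment, adjusted p = 0.098 by limma). The effect was -0.3188 with the empty vector and 0.5401 with Flag-OC2, and in each arm the 2 hypoxia libraries lay on 1 side of the 2 normoxia libraries. Such separation was found for 69.4% of all genes with the empty vector and 68.1% with Flag-OC2.

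In other cases all libraries of the 2 groups compared moved one way in PC3 cells and the other way in LNCaP cells. Those differences were not tested, since the tables were made separately. With low ONECUT2 in PC3 and Flag-OC2 in LNCaP cells, the log2 fold change of hypoxia over normoxia was -0.277 and 1.427 for ARNT2 and -0.5346 and 0.2657 for VHL. Here cell line and ONECUT2 arm differ together and cannot be told apart. In the control arms the groups overlapped for VHL in PC3 and for ARNT2 in LNCaP cells. High and low ONECUT2 name the arms within a line and do not compare between lines. In hypoxia the low LNCaP arm, empty vector, held 11.5 and 3.09 RPKM of ONECUT2. The high PC3 arm, siCtrl, held 0.648 and 0.550 RPKM. For high over low ONECUT2 in hypoxia the log2 fold change was -0.6768 in PC3 and 0.5473 in LNCaP cells for ARNT2. It was -0.8525 and 0.1451 for EGLN3, and -0.196 and 0.06706 for VHL. With 2 libraries per group such separation is common: 28.3% and 68.1% of all genes did not overlap in the hypoxia comparisons, and 38.4% and 66.4% in the ONECUT2 comparisons. Groups of 2 were too small for a test of single outlying libraries.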

How the results depend on the processing

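Of the 90 log2 fold changes of members, the 21 with an unadjusted P under 0.05 kept their sign under every alternative run. Under all alternatives but the adjusted p, EGLN1 kept its calls in all hypoxia comparisons, and EGLN3 with siOC2 and in LNCaP cells. In PC3 cells EGLN3 reached 5 RPKM in the siOC2 hypoxia libraries alone. At the limit of 5 RPKM it entered the PC3 fit through that group, so its siOC2 call there is a description only. The PC3 calls did not reach the adjusted p. In LNCaP cells the calls of EPAS1 (empty vector) and ARNT2 (Flag-OC2) held under all alternatives that tested these genes. The limit of 5 RPKM left both untested, since neither reached it in 2 LNCaP libraries. By the adjusted p, 0 members were called higher in PC3 hypoxia with siCtrl or siOC2, and 1 (EGLN2) was called lower with Flag-OC2 in normoxia. The adjusted p of EGLN1 with siCtrl ran from 0.000551 (only the 2 groups fitted) to 0.718 (without siCtrl normoxia 1) by limma. A pseudocount of 1 left 1 member (EGLN1) called higher with siCtrl. EPAS1 lost that call under upper-quartile scaling and with depth as a covariate, and EGLN3 with a limit of 5 RPKM. Depth as a covariate brought EPAS1 past the limits in Flag-OC2 hypoxia (log2 fold change 1.03). Leaving out each library gave 1 to 3 members called higher and 0 to 1 lower (HIF1A) with siCtrl, 0 to 1 higher (ARNT) and 0 to 1 lower (EGLN2) for siCtrl over siOC2 in hypoxia, 0 to 1 higher for the PC3 interaction (EPAS1) and the LNCaP interaction (ARNT2 or EGLN2), and 0 to 1 lower (EGLN2) for Flag-OC2 in normoxia. These were ARNT without siCtrl hypoxia 2 (log2 fold change 1.04), EGLN2 without siOC2 hypoxia 2 (-1.36), EPAS1 without siOC2 hypoxia 1 (1.33), ARNT2 without empty vector normoxia 1 (1.38) or Flag-OC2 normoxia 2 (1.33), and EGLN2 in the interaction without Flag-OC2 hypoxia 1 (1.00). The cause of these changes was not tested. A group left with 1 library was assumed to vary like the others.

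The other 69 fold changes were less firm: 55 of all 1627 recomputed values had the other sign, 41 of them when a library was left out, and 0 of the 55 passed the limits. Upper-quartile scaling gave log2 fold changes of 0.11 for HIF1AN in siOC2 hypoxia, 0.053 for ARNT and 0.072 for HIF1AN for siCtrl over siOC2 in normoxia, -0.022 for ARNT and -0.12 for HIF1A in Flag-OC2 hypoxia, and 0.040 for EGLN1, 0.036 for HIF1A and 0.040 for VHL for Flag-OC2 in normoxia. Depth as a covariate gave 0.21 for ARNT for siCtrl over siOC2 in normoxia, and -0.075 for ARNT, 0.11 for ARNT2, 0.0040 for EGLN1, -0.21 for EPAS1 and -0.11 for HIF1AN for Flag-OC2 in normoxia. Leaving out each library, the log2 fold change ran from -0.49 to 0.38 for ARNT and -0.14 to 0.076 for VHL in siCtrl hypoxia. In siOC2 hypoxia it ran from -0.33 to 0.57 for EGLN2, -0.31 to 0.67 for EPAS1 and -0.55 to 0.40 for HIF1AN. For siCtrl over siOC2 in normoxia it ran from -0.20 to 0.069 for ARNT, -0.70 to 0.30 for EGLN3, -0.24 to 0.52 for HIF1A and -0.35 to 0.25 for HIF1AN, and in hypoxia from -0.12 to 0.33 for EGLN1, -0.31 to 0.67 for EPAS1 and -0.34 to 0.61 for HIF1AN. In the PC3 interaction it ran from -0.87 to 0.025 for EGLN2 and -0.29 to 0.66 for HIF1AN. In LNCaP hypoxia it ran from -0.18 to 0.031 for HIF1AN with the empty vector, and from -0.038 to 0.28 for ARNT and -0.12 to 0.17 for HIF1A with Flag-OC2. For Flag-OC2 over empty vector in normoxia it ran from -0.092 to 0.22 for ARNT, -0.83 to 0.0030 for ARNT2, -0.18 to 0.087 for EGLN1, -0.13 to 0.73 for EPAS1, -0.16 to 0.051 for HIF1A, -0.045 to 0.35 for HIF1AN and -0.10 to 0.0019 for VHL, and in hypoxia from -0.22 to 0.070 for EGLN2 and -0.19 to 0.050 for HIF1AN. In the LNCaP interaction it ran from -0.25 to 0.036 for HIF1A.

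With the replicate block, 3 members were called higher with siCtrl and 2 with siOC2 in PC3 hypoxia, 3 in each LNCaP hypoxia comparison and 0 in the ONECUT2 and interaction comparisons, so it changed no count. Crossing the numbers in PC3 cells also gave 3 and 2. Upper-quartile scaling moved the all-gene median (log2) from -0.222 to -0.0392 in siOC2 hypoxia, from -0.126 to -0.00586 for siCtrl over siOC2 in normoxia, from 0.167 to 0.00178 in the PC3 interaction and from 0.0922 to -0.049 in Flag-OC2 hypoxia. By Spearman's rho 1 of the 3 genes most like EGLN3 in PC3 cells (WDR60) and 0 of 3 for the other called members were among the top 3. Groups of 2 libraries limit all results, and EGLN3 and ARNT2 in PC3 and EPAS1 and ARNT2 in LNCaP cells lie at a few RPKM, where few reads stand behind a value in the shallow libraries.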
